A study of Mus musculus with 2 samples.

Results

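A set of 9 genes of the cell division cycle were followed through an Ago2 iCLIP experiment: the D-type cyclin genes Ccnd1, Ccnd2 and Ccnd3, their kinase partner gene Cdk6, the cyclin E gene Ccne1, the phosphatase gene Cdc25a, the transcription factor gene E2f1 and the kinase genes Wee1 and Chek1. The members were chosen by symbol, as the rows of the predicted site table and of the enriched cluster list that carry exactly one of these 9 names. Of the 9, 8 are among the 15271 genes of the site table, with 701 of its 1641948 entries, and 6 carry 24 of the 6211 enriched clusters. Wee1 has clusters and no entry in the site table. The experiment used mouse embryonic stem cells in which human Ago2, made from a doxycycline-inducible gene, is the single Argonaute protein. The clonal line TT-FHAgo2 makes FLAG-HA-tagged Ago2 and the clonal line TT-Ago2, the control, makes it without a tag. Both lines grew with doxycycline at 0.1 µg/mL, which was raised to 2.5 µg/mL over the last 24 h, and both lysates went through the FLAG and HA precipitation. There is 1 library of each line, and the spread between replicates is therefore unknown. Binding in these cells is that of a human protein in 1 clone, with no other Argonaute present.

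Argonaute proteins hold a microRNA and find messenger RNAs through short matches to the seed of the microRNA, the bases near its 5′ end. In iCLIP, ultraviolet light fixes the protein to its RNA before lysis, and the fragments that come down with it are sequenced. The genes described here drive or check the passage from G1 into S phase, or, as Wee1, the entry into mitosis. D-type cyclins with Cdk4 or Cdk6 and then cyclin E with Cdk2 phosphorylate the retinoblastoma protein, which frees E2F factors. Cdc25A removes the inhibitory phosphates that Wee1 puts on cyclin-dependent kinases, and Chk1, the product of Chek1, directs Cdc25A to destruction when DNA is damaged or replication stalls. Mouse embryonic stem cells pass through a short G1 phase, and the microRNAs of the miR-290 cluster are abundant in them and known to promote the entry into S phase.

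Some of the microRNAs with seed matches at the most covered sites described here are printed first, 5′ to 3′, with bases 2 to 8 in capitals. The sequences are from RefSeq (table build GRCm38.p6), in which 44 of the 50 listed 7mers were matched to at least 1 of 1679 mature mouse microRNAs. The first 3 share 1 seed, which pairs with TGCTGCT, and miR-503-5p differs from them at the last seed base and pairs with CGCTGCT.
miR-16-5p: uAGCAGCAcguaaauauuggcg
miR-15a-5p: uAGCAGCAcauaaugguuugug
miR-322-5p: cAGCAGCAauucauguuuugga
miR-503-5p: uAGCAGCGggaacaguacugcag

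A second group carries the bases AAGUGC within the seed at positions that differ by 1. The miR-17 family pairs with GCACTTT, the miR-291a family with AGCACTT and miR-290a-3p with GGCACTT, so that 1 stretch of a transcript can match several of them.
miR-17-5p: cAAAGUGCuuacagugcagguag
miR-20a-5p: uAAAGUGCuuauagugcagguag
miR-291a-3p: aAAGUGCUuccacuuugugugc
miR-294-3p: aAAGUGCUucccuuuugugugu
miR-290a-3p: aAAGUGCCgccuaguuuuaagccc

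The remaining matches with many reads belong to single seeds, those of miR-200b-3p (CAGTATT), miR-291a-5p (CTTTGAT) and miR-296-5p (GGGGCCC).
miR-200b-3p: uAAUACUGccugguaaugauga
miR-291a-5p: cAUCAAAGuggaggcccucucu
miR-296-5p: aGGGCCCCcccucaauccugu

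The values at sites rest on 789000 reads of the tagged library, in which 1 read is 1.27 rpm (reads scaled to library size). The total of the untagged library is unknown here, and its number of reads in a cluster is the one implied by the enrichment in the authors' deposited table, with unknown scaling. Intervals are exact (Clopper-Pearson) 95% binomial intervals and cover counting error only, since reads were not checked for duplicate molecules. Transcript levels are the authors' FPKM values for the most expressed isoform, from a source not given. The 8 embryonic stem cell markers ranged from 84.2 to 1650 FPKM with a median of 342. Of the markers of other cell types, 10 of 17 were in the table, at 0.165 to 9.85 FPKM apart from Vim at 45.

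Enriched Ago2 clusters were listed for most of these genes. At least 1 enriched cluster was listed for Ccnd1, Ccnd3, Ccne1, Cdc25a, E2f1 and Wee1, and none for Ccnd2, Cdk6 and Chek1. Among the 8 members in the site table, 5 had a cluster, while 17.1% of all 15271 genes did. With the authors' p under 0.01 it was still 5, while 10.5% of all genes had one. Of the 6 members at 10 FPKM or more, 5 had one, while 29.1% of the 5357 genes at that level did. In 4 members, Ccnd1, Ccne1, Cdc25a and E2f1, a cluster lay over a listed 7mer or 8mer, against 8.68% of genes in the table. Of the 24 clusters, 15 were in 3′ UTRs, 2 in coding sequence, and 7, all of Wee1, within 5 kb downstream of the gene. Of all 6211 clusters 215 were downstream. By tagged reads, a 3′ UTR cluster of 5 reads ranked 4492 among all clusters and 2836 among those in 3′ UTRs. Most clusters with more than 5 reads were thus in 3′ UTRs over all genes as well, and the 15 of 24 are not particular to the group. By reads the picture was less one-sided, with 101 of the 246 tagged reads summed over the clusters in those of Wee1. The largest clusters of Ccnd1 and Wee1 lay outside the 3′ UTR. No untagged read was implied for 20 of the 24. Clusters are listed by their enrichment over the untagged library, so low untagged numbers follow from the listing and are not separate support. Several clusters overlap, and joining those that do leaves 16 stretches and 1 cluster across a splice junction.

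**Figure D1:**
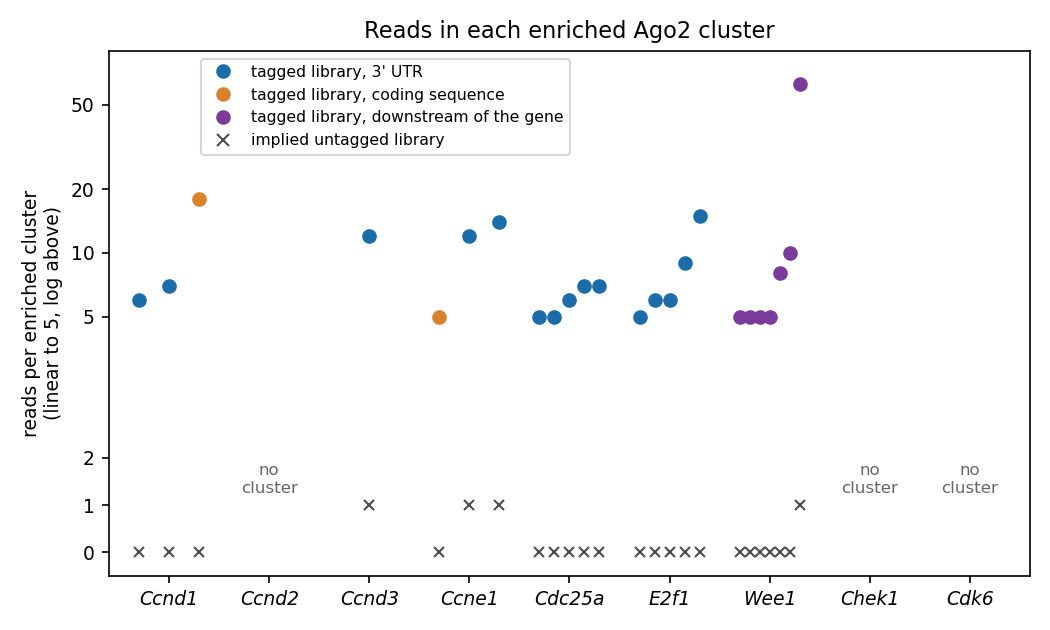
Reads in each enriched Ago2 cluster of the 9 genes, on an axis that is linear to 5 and logarithmic above. Points are tagged reads, coloured by the authors' region, and crosses are the implied untagged reads of the same clusters, which are 0 or 1 throughout. The cluster of 63 reads downstream of Wee1 stands above all others, and Ccnd2, Chek1 and Cdk6 have none.

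The predicted sites gave the same genes a wider description. The table lists matches of 50 seeds (as 6mers, 7mers or 8mers) and further 8mers of other seeds in transcripts of at least 0.1 FPKM. The 8 genes held 304 distinct listed sites, of which 94 (30.9%, 25.8 to 36.4) were covered by at least 1 read, against 10.7% of the 687523 listed sites of all genes. Coverage was low at most of them, with 37 of the 94 at 1 read, 20 at 5 or more, 7 at 10 or more and a highest value of 19. Further 8mers in the same genes, which match none of the listed seeds and do not overlap them, held a read almost as often, at 79 of 299 (26.4%, 21.5 to 31.8), against 7.21% over all genes. The intervals of the listed and further sites overlap. The shares over all genes, 10.7% and 7.21%, were not split by region or level, while 231 of the 304 member sites were in 3′ UTRs. There 83 of the 231 (35.9%) held a read. In other genes around the FPKM of each member, 13.3% to 33.2% of listed 3′ UTR sites did. Sites a few bases apart are covered by the same reads, so they are not independent of each other. A read at a site therefore does not show which microRNA, if any, held it.

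**Figure D2:**
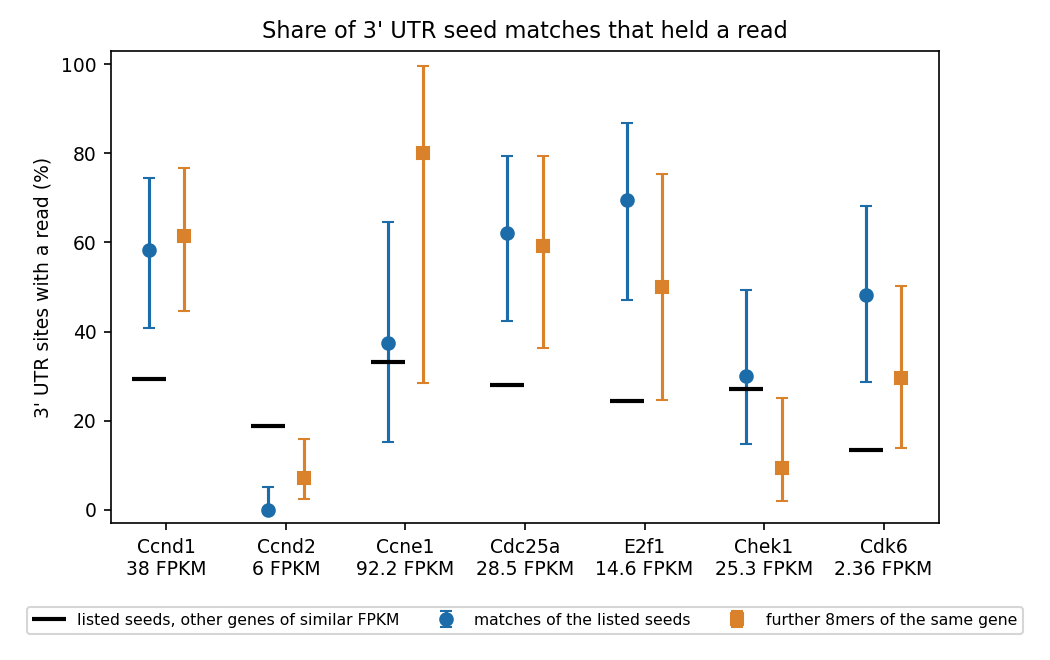
Share of predicted 3′ UTR sites that held at least 1 read in 7 genes, with exact 95% binomial intervals as bars. Blue circles are matches of the 50 listed seeds, orange squares further 8mers of the same gene, and black lines the listed matches of other genes within 1.5 times its FPKM. Ccnd1, Cdc25a, E2f1 and Cdk6 lie above the black line, Ccnd2 lies at 0 below it, and the intervals of Ccne1 and Chek1 hold it. Ccnd3 and Wee1 have no 3′ UTR site in the table.

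The D-type cyclin genes differed from each other. Ccnd1 encodes cyclin D1, which activates Cdk4 and Cdk6 in G1. Its transcript was listed at 38 FPKM, and 21 of its 36 listed sites (58.3%, 40.8 to 74.5), all in the 3′ UTR, held a read. In other genes within 1.5 times that level, 29.3% of listed 3′ UTR sites did, and Ccnd1 was above 89.8% of the 746 such genes with at least 10 sites. Further 8mers of the Ccnd1 3′ UTR held reads as often, at 61.5%. Both of its 3′ UTR clusters are short. One, on mm9 chromosome 7 from 152117548 to 152117591 on the minus strand, held 6 tagged reads against 0 and overlaps AGCACTT and GCACTTT, each covered by 7 reads. The other, from 152116677 to 152116719, held 7 against 0 and lies over no listed 7mer or 8mer. It covers an 8mer match of miR-503, conserved at a PhastCons score (0 to 1, from an alignment of genomes) of 1.0 and covered by 8 reads, the most of any Ccnd1 site. Capitals mark the seed matches, printed as the transcript reads.
Ccnd1, miR-503 match (chr7:152116698-152116705, minus strand): CGCTGCTA
Ccnd1, miR-291a and miR-17 matches (chr7:152117581-152117602, minus strand): ccattccatttcaaAGCACTTT

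The miR-503 match is not among the 50 listed seeds and shares the listed 6mer GCTGCT with miR-15/16, so its reads cannot be divided between them. In the 3′ UTRs of all genes this 8mer occurs 60 times, and 22 of the sites (36.7%, 24.6 to 50.1) held a read. Ccnd1 and Ccnd2 have 3 of the 60. All 3 held a read, with 8 and 1 at the pair in Ccnd1 and 1 in Ccnd2. The 6mer GCTGCT inside the Ccnd2 match had 0 reads, so the read there reached only the edge of the match. Other 7mers and 8mers of Ccnd1 had fewer reads, with 3 at GTGCCTT and 2 at TTTGCACA, the miR-19 match. Its 7mer match of miR-15/16 had 0. The largest Ccnd1 cluster was not in the 3′ UTR. It spans a splice junction of the coding sequence, between 152118646 and 152119990, and held 18 tagged reads against 0 (at least 6-fold over a floor of 3 counts), with a binomial p of 3.81e-06 in the authors' deposited table. That p compares the reads of 1 library with those of another, not replicated conditions.

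Ccnd2, which encodes cyclin D2, was the opposite case. It has 89 listed sites, the most of the 8 genes, and none held a read, which allows a share of up to 3.37% by a limit of 3 counts. Of these, 70 are in the 3′ UTR (0 of 70, exact upper limit 5.13%) and 17 in coding sequence. Its 18 listed 7mers and 8mers include the miR-15/16 match TGCTGCTA, with a conservation of 1.0, and adjoining AGCACTT and GCACTTT matches, with the same letters as those covered in Ccnd1. The transcript was listed at 6 FPKM. In 2270 other genes from 4 to 9 FPKM, 18.9% of listed 3′ UTR sites held a read, and 275 of the 1414 genes with at least 10 sites (19.4%) were at 0 like Ccnd2. These genes were not matched to the 70 sites of Ccnd2, and a gene with fewer sites is at 0 more easily. Reads were not absent from its 3′ UTR, since 5 of 70 further 8mers there (7.14%, 2.36 to 15.9) had 1 read each.
Ccnd2, miR-15/16 match, 0 reads (chr6:127078559-127078566, minus strand): TGCTGCTA
Ccnd2, miR-503 match, 1 read (chr6:127078626-127078636, minus strand): CGCTGCTAaga
Ccnd2, miR-291a and miR-17 matches, 0 reads (chr6:127079353-127079365, minus strand): AGCACTTTgaaaa

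Ccnd3, the gene of cyclin D3, had the highest listed level of the 8 genes at 113 FPKM. The site table gives it only 3 listed sites, all 6mers in the 5′ UTR, with 0, 2 and 3 reads. Its 1 cluster is in the 3′ UTR, where the table lists no site for it, on chromosome 17 from 47735902 to 47735957 on the plus strand. It held 12 tagged reads against 1 (ratio 12, exact interval 1.78 to 513), with a binomial p of 0.0017 in the authors' deposited table. A pseudogene, Ccnd3-ps, has 37 entries of its own at 2.12 FPKM and at most 2 reads. How reads that fit both copies were placed is not given, so the reads of Ccnd3 are uncertain to that extent.

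Cdk6, the kinase partner of the D-type cyclins, was covered without a cluster. It was listed at 2.36 FPKM, the lowest of the 8 genes. Of its 27 listed 3′ UTR sites, 13 (48.1%, 28.7 to 68.1) held a read, against 13.3% in genes of similar level, and it was above 95.6% of 1216 such genes. In its coding sequence 2 of 10 did. Reads per site were few, with a highest value of 4 at the 6mer GTTATG. The most covered 7mer was the miR-103/107 match ATGCTGC on chromosome 5 from 3521100 to 3521106, with 3 reads and a conservation of 1.0, followed by AGCACTT with 2. The smallest deposited cluster held 5 reads, and no site of Cdk6 reached that number.

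**Figure D3:**
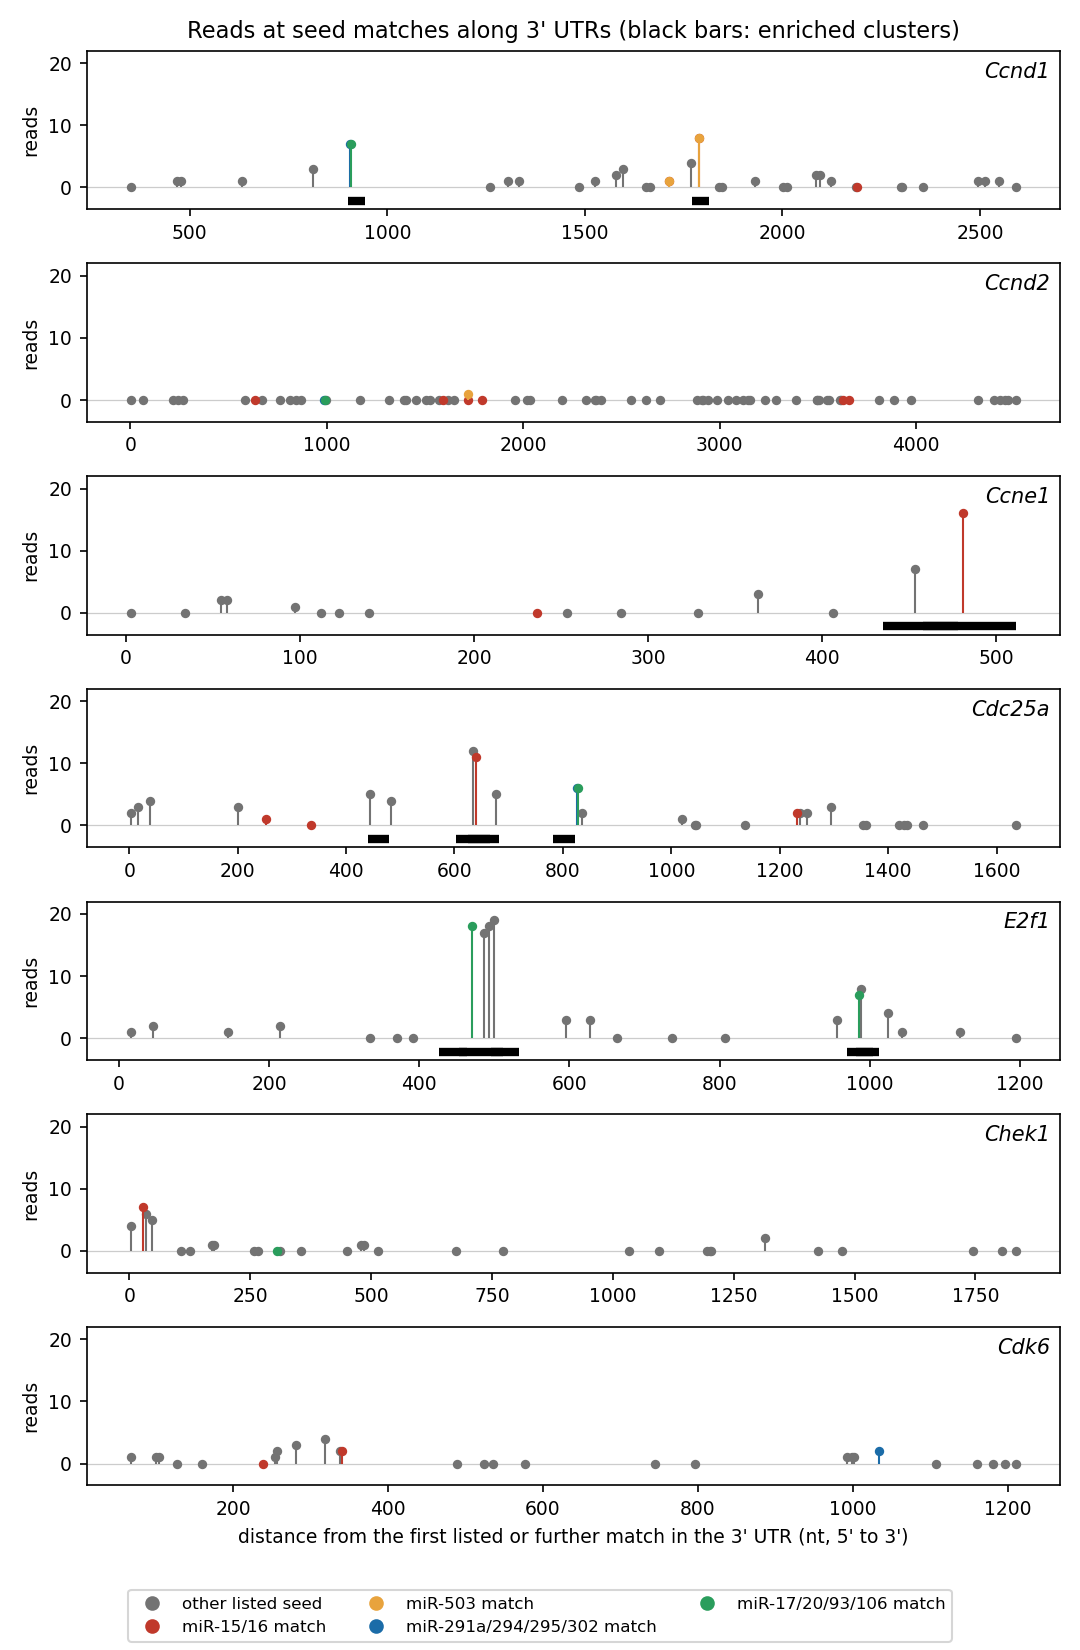
Reads at each listed site and each miR-503 match along the 3′ UTRs of 7 genes, plotted by distance in nucleotides from the first predicted match, 5′ to 3′. Colours mark the seed family (6mers included) and black bars the enriched clusters. Matches 1 nt apart overlie each other, as blue and green do in Ccnd1, Ccnd2 and Cdc25a and as red lies behind the miR-503 points. The highest points, of 16 to 19 reads, are within clusters of Ccne1 and E2f1, and the listed sites of Ccnd2 are all at 0.

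Ccne1 encodes cyclin E1, the activator of Cdk2 at the start of S phase. Its reads gathered at 1 conserved place, which holds an 8mer match of miR-15/16. That match was covered by 16 reads with a conservation of 1.0, and its log2 coverage of 1.09 (the authors' value, corrected for expression) was above 95.8% of listed sites with a read. A pair of overlapping clusters meets there. One, on chromosome 7 from 38883016 to 38883068, held 14 tagged reads against 1 (ratio 14, exact interval 2.13 to 592), and the other, from 38883049 to 38883091, held 12 against 1. Both name the same crosslink position, with 3 events, 3 nt upstream of the first base of the 8mer. The other listed 7mers of Ccne1 had 0 reads, and the 6mer TGCCTT in the second cluster had 7. A further 8mer just downstream of the miR-15/16 match, GTCTATCA of miR-463-3p, had 15 reads and a conservation of 0.966, so the reads cannot be divided between them.
Ccne1, miR-15/16 match (chr7:38883042-38883049, minus strand): TGCTGCTA

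In all, 6 of the 16 listed 3′ UTR sites of Ccne1 (37.5%, 15.2 to 64.6) held a read, near the 33.2% of other genes around its 92.2 FPKM. By this share Ccne1 did not stand apart, and its signal lay in the depth at 1 place. Another cluster, in coding sequence from 38884839 to 38884863, held 5 reads against 0.

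Cdc25a, whose phosphatase activates cyclin-dependent kinases, had 5 clusters in its 3′ UTR with 5 to 7 tagged reads each and 0 untagged. Of the 29 listed 3′ UTR sites, 18 (62.1%, 42.3 to 79.3) held a read, against 28.0% in genes around its 28.5 FPKM, and it was above 93.5% of 921 such genes. Its 4 coding sequence sites held none. Further 8mers of the 3′ UTR were covered as often, at 59.1%. The centre of coverage was a place on chromosome 9 where 3 overlapping clusters of 7, 7 and 6 reads span 109795341 to 109795420 on the plus strand. There the miR-200b match CAGTATT, with 12 reads, runs into the miR-15/16 match TGCTGCTA, with 11, the last T of the one being the first of the other. The authors' log2 coverage was 1.08 and 0.95, and the conservation 0.883 and 0.981. The crosslink positions lay at the first base of TGCTGCTA and at 2 nt upstream of it, with 2 events each, and another lay 22 nt upstream. The reads of the pair cannot be divided between the microRNAs.
Cdc25a, miR-200b and miR-15/16 matches (chr9:109795368-109795381, plus strand): CAGTATTGCTGCTA
Cdc25a, miR-290a, miR-17 and miR-22 matches (chr9:109795561-109795576, plus strand): GGCACTTTAGGCAGCT

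The second stretch holds GGCACTT and GCACTTTA, with 6 reads each, followed by GGCAGCT of miR-22. It lies outside the clusters, the nearest of which, with 5 reads, covers 109795519 to 109795559 and ends just before it. A further cluster from 109795178 to 109795216 held 5 reads and overlaps only the 6mer CAAGAC. The miR-484 match GAGCCTG at the edge of the central stretch had 5 reads and a conservation of 0.0019, the lowest of the listed 7mers and 8mers with 5 or more reads.

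E2f1, the gene of the transcription factor that turns on S phase genes, had the most deeply covered sites of the group. Its 5 clusters held 6, 6, 9, 15 and 5 tagged reads and 0 untagged. They join into a stretch of 43 nt on chromosome 2 from 154385410 to 154385452 and a stretch of 107 nt from 154385889 to 154385995, both on the minus strand of the 3′ UTR. The cluster of 15 reads, from 154385911 to 154385968, was at least 5-fold over the floor, with a binomial p of 3.05e-05 in the authors' deposited table. It holds 2 listed 7mers with 18 reads each, GCACTTT of the miR-17 family (conservation 1.0) and GGGGCCC of miR-296-5p (0.962). At a log2 coverage of 1.90 both were above 98.2% of listed sites with a read. The 6mers CTGTGA and TGCTGC of the same stretch had 19 and 17 reads. Its crosslink position, with 3 events, lay 1 nt upstream of GCACTTT and 24 nt upstream of GGGGCCC.
E2f1, miR-17 match (chr2:154385948-154385954, minus strand): GCACTTT
E2f1, miR-296-5p match (chr2:154385920-154385931, minus strand): GGGGCCCtgtga
E2f1, miR-17 and miR-291a-5p matches (chr2:154385430-154385439, minus strand): GCACTTTGAT

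The shorter stretch holds the last of these sequences, in which GCACTTT (7 reads) and CTTTGAT of miR-291a-5p (8 reads) overlap. Both matches are conserved at 1.0, and crosslink positions lay 2 nt upstream and 12 nt downstream of the first base of GCACTTT. Of the 23 listed 3′ UTR sites of E2f1, 16 (69.6%, 47.1 to 86.8) held a read, the highest share of the 7 genes with such sites, although its interval overlaps that of every one of them but Ccnd2. Genes around its 14.6 FPKM had 24.5%, and E2f1 was above 96.8% of 1262 of them. In its coding sequence 3 of 21 sites (14.3%) held a read.

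Wee1, whose kinase holds Cdk1 inactive until mitosis, carried the largest cluster of the group, and it was annotated within 5 kb downstream of the gene and not in the 3′ UTR. On chromosome 7 from 117286060 to 117286234 on the plus strand, 175 nt held 63 tagged reads against 1 untagged (ratio 63, exact interval 10.9 to 2530), with a binomial p of 3.52e-18 in the authors' deposited table. By reads it ranked 31 of all 6211 clusters and second of the 215 downstream ones. Its highest crosslink position had 8 events. The other 6 clusters lie beside it, between 117285834 and 117286758. One from 117286332 to 117286383 held 10 reads and one from 117286034 to 117286073, which overlaps the largest, held 8. The other 4 held 5 each, the smallest number in the list, and all 6 had 0 untagged. The site table has no entry for Wee1 in this region, so the clusters could not be compared with seed matches.

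Chek1, the checkpoint kinase gene, had no cluster and 1 well covered site. An 8mer match of miR-15/16 near the 5′ end of its mapped 3′ UTR sites, on chromosome 9 from 36517875 to 36517882 on the minus strand, had 7 reads and a conservation of 0.999. At a log2 coverage of 0.34 it was above 91.7% of listed sites with a read. It runs on into the 6mer ATGTGA, with 6 reads. Among its other 7mers and 8mers, GTATGTAA and, in the 5′ UTR, GGCAGCT had 1 read. Over the whole 3′ UTR 9 of 30 listed sites (30.0%, 14.7 to 49.4) held a read, against 27.1% in genes around its 25.3 FPKM, and further 8mers did in 9.38%.
Chek1, miR-15/16 match (chr9:36517870-36517882, minus strand): TGCTGCTAtgtga

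Across the group, 2 seed families recurred at the deepest sites. Matches of miR-15/16 (TGCTGCT as a 7mer or within an 8mer) were present 6 times in the 3′ UTRs of 5 genes. They held a read in Ccne1 (16), Cdc25a (11 at 1 of 2 sites) and Chek1 (7), and none in Ccnd1 and Ccnd2, giving 3 of 6 (50%, 11.8 to 88.2) against 29.9% over all genes. With 6mers the count was 8 of 18 (44.4%) against 23.0%. GCACTTT was covered at 4 of 5 sites (80.0%, 28.4 to 99.5) in Ccnd1, Cdc25a and E2f1, and not in Ccnd2, against 57.1% over all genes. AGCACTT or GGCACTT was covered at 3 of 4 sites, in Ccnd1, Cdc25a and Cdk6, against 47.0%. CTTTGAT was covered at 3 of 3, 2 of them in E2f1, against 22.8%. In E2f1, 1 of them overlaps GCACTTT and shares its reads. Of these counts, the interval of CTTTGAT (29.2 to 100), with 3 sites in 2 genes, lies above the value of all genes, and the intervals of the miR-15/16, GCACTTT and AGCACTT or GGCACTT counts hold it. The next families are named because their intervals lie above the value of all genes. AATGTGA of miR-23a-3p was covered at 2 of 2 7mers (15.8 to 100) against 14.5%. With 6mers counted, the miR-103/107 family was covered at 8 of 10 sites (44.4 to 97.5) against 21.0%, but its 7mer ATGCTGC at 1 of 2. The miR-298-5p family was covered at 7 of 14 (23.0 to 77.0) against 17.6%, and at 3 of 7 as a 7mer or 8mer. The miR-381-3p sites, all the 6mer TTGTAT, were covered at 4 of 5 (28.4 to 99.5) against 17.3%. Families at 0 included AAGCCAT (0 of 7), TACTTGA (0 of 6) and CAGGTGA (0 of 6). Over all listed seeds, 83 of the 231 3′ UTR sites of these genes (35.9%) were covered. Of the family intervals given here, only that of miR-103/107 lies above this 35.9%.

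Depth at a site went with its conservation in the group as it did in all genes. The 13 listed 3′ UTR 7mers and 8mers with 5 or more reads had a median PhastCons score of 0.988, and 9 of them (69.2%) reached 0.9. Of 14 with 1 to 4 reads 35.7% did, and of 39 with no read 23.1%. Over all genes the shares were 50.6% of 2664, 34.4% of 13081 and 19.8% of 62536. Several of the 13 sites of the group overlap, as AGCACTT and GCACTTT do in Ccnd1, and share reads and conservation. They are therefore not independent. The exceptions among the unread sites include the conserved ones of Ccnd2. Crosslink positions lay close to the listed 7mers and 8mers in the clusters, with a median of 0.5 nt upstream of the first site base over 20 pairs of a position and a 7mer or 8mer (middle range 3 nt upstream to 6 downstream), and 85% within 12 nt. Over 3139 pairs of all genes the median was 1 nt upstream and 62.7% were within 12 nt. A pair within overlapping clusters was counted for each of them, in the group and over all genes. The 20 pairs come from Ccne1, Cdc25a and E2f1 alone and are not independent, so the 85% rests in part on repeated pairs.

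**Figure D4:**
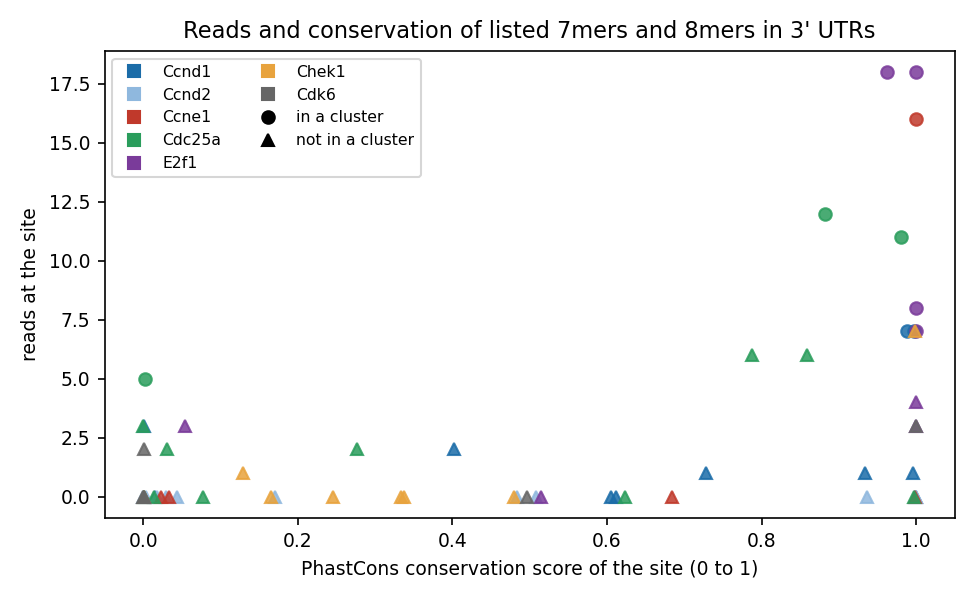
Reads at each listed 7mer and 8mer in the 3′ UTRs of 7 genes, against the PhastCons score of the site (0 to 1). Circles lie in an enriched cluster and triangles do not, and colours mark the gene. All but 1 of the sites with 5 or more reads score above 0.7, while sites with no read are found along the whole axis.

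Other genes of the cell cycle, from a list of 45 textbook members, also carried clusters. Of the 43 in the site table, 26 (60.5%) had at least 1, against 17.1% of all genes. In 13 a cluster lay over a listed 7mer or 8mer, against 8.68% of all genes. Of the 34 at 10 FPKM or more 21 had a cluster, against 29.1% of genes at that level. With the authors' p under 0.01, 16 had a cluster, against 10.5% of all genes. Among other cyclins and kinases 6 of 9 had a cluster. Ccna2, the S phase and mitotic cyclin A2, had 4 with 29 reads against 0, Cdk1 had 2 with 20 against 0, and Cdk4, the close relative of Cdk6, had 2 with 13 against 0. Of the other phosphatases and inhibitory kinases, 0 of 2 had one. In the checkpoint group 3 of 4 did, Atm, Chek2 and Trp53, each with 1 cluster of 5 to 7 reads. Of the E2F factors and partners 5 of 9 did, led by E2f7, a repressor, with 3 (20 against 1), E2f5 with 2 (28 against 0) and E2f3 with 1 of 14 reads. Of the ubiquitin ligase group 3 of 6 did, Skp2 with 10 reads and Fbxw7 and Cdc20 with 5 each. In the licensing and mitosis group 9 of 13 did. Cdt1, which loads the MCM helicase, had 4 clusters with 144 reads against 2, and the helicase subunit genes Mcm3 and Mcm5 had 4 each, with 39 and 29 reads against 1. Without a cluster despite high levels were Cks1b (131 FPKM), E2f4 (110), Ccnb1 (95.2), Mcm6 (68.5) and Plk1 (57.9).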

How the data were processed

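Ago2 iCLIP was done in 1 tagged and 1 untagged library, and the deposited files analysed here belong to the tagged one. Per the submitters' processing notes, the builds were mm9 and NCBIM37, and the tools included TopHat and Bowtie. The cluster caller is not stated. Peak height in the deposited cluster list is a signal in whole reads per the file headers. A deposited text field of each cluster, apart from its name, joins tagged reads, log2 enrichment and a binomial p at the authors' threshold of 0.05. The implied untagged number solves both in 100% of clusters. Coverage per site is rpm, expression is FPKM and the log2 coverage is a log2 value, all deposited by the authors. PhastCons is a deposited conservation score. Whole reads were recovered from the rpm of 100% of entries within 0.001.

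Sites were made distinct (22927 repeats removed), and shorter matches within a longer one were left out. A site overlapped a cluster when they shared 1 nt or more of a strand, without 216 junction clusters and 2 wider than 200 nt. Crosslink positions were read as genomic offsets from the cluster start, since their median over the width was 0.259 on the plus and 0.698 on the minus strand. They may be off by 1 nt. Coordinates are 1-based. Scripts (Python 3.11.15, pandas 2.3.3, numpy 2.4.6, scipy 1.17.1, matplotlib 3.10.9) were checked on simulated data. No test of conditions was possible with 1 library per group.

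The members and gene lists were chosen with earlier results of these data known. The text names all members and clusters, up to 4 listed 7mers or 8mers of each member with the most reads and all those in a cluster, up to 3 genes with the most clusters of each other group, and the 5 of highest FPKM without one. The 6mers and further 8mers named, and E2f3 among genes tied at 1 cluster (by its reads), were chosen after their values were seen. Alternatives tried were a stricter p, 3′ UTR sites or clusters alone, match types, at least 2 reads, cluster overlap, every entry as listed, expression minimums and, added after seeing the data, joined clusters.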

Additional observations from a re-analysis of the deposited data

How the results depend on the processing

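Of the 9 members, 6 had a cluster, and still 6 with the authors' p under 0.01 and 5 with 3′ UTR clusters alone. The count of members with a cluster over a listed 7mer or 8mer was 4 and fell to 2 with 8mers alone. The share of listed sites with a read, 30.9%, was 18.8% with at least 2 reads, 4.93% when overlap with a cluster was asked for, and 9.62% in coding sequence. It ranged from 33.6% to 35.9% with every entry as listed, 7mers and 8mers alone or 3′ UTR sites alone. Of the other cell cycle genes, 26 had a cluster and 16 had one with p under 0.01. The 24 clusters became 17 when joined. For single members, 18 of 22 alternatives stayed within the interval. Those outside it were at least 2 reads in Ccnd1 (25%), Chek1 (15.6%) and Cdk6 (15.8%), and 3′ UTR sites alone in E2f1 (69.6%). Most covered sites held few reads (37 of 94 held 1), so a site with no read is not shown to be unbound at this depth. No paired analysis was possible because each group holds 1 library. The cause of these changes was not tested.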
